A study of Mus musculus with 2 samples.

Results

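The receptors for interleukin-12, interleukin-18 and the interleukin-1 family were followed in chromatin accessibility data from mouse CD8+ T cells. The set holds 8 genes, Il12rb1, Il12rb2, Il18r1, Il18rap, Il1r1, Il1r2, Il1rl1 and Il1rl2, of the 21887 protein-coding genes placed on the chromosomes used. It was defined by gene name. A peak belonged to the set when it touched a gene's span in mm10 or the 20 kb on either side, and a peak touching several such windows was counted once. This gave 43 of 64910 peaks in the library titled treatment and 64 of 85137 peaks in the library titled control.

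The assay was ATAC-seq, which marks open chromatin by where a transposase can cut and tag the DNA, with 1 library per group and no replicate. The group names are those of the titles. A second label field reads "Combined treatment" for the treatment library and "Treatment" for the control library, so the fields name the groups differently. The labels used here give no agent, dose, time, strain or age for either library, and the series title speaks of Peml-1. A genotype field is present, but in both libraries it holds the same phrase about chromatin and names no genotype. With 1 library per group no test between the groups could be made, and every difference below is a difference between these libraries.

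Interleukin-12 binds a receptor made of the IL-12Rβ1 chain, which is shared with the interleukin-23 receptor, and the IL-12Rβ2 chain, and signals through STAT4. Interleukin-18 binds IL-18Rα, encoded by Il18r1, which recruits the accessory chain IL-18Rβ, encoded by Il18rap, and signals through MyD88. In CD8+ T cells these cytokines act together to induce interferon-γ, also without antigen. The genes Il1r2, Il1r1, Il1rl2, Il1rl1, Il18r1 and Il18rap stand side by side on mouse chromosome 1, while Il12rb2 is on chromosome 6 and Il12rb1 on chromosome 8.

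The promoters of 5 of the genes are shown because they stand for the starts with and without a peak. Starts and sequences are RefSeq's (GRCm38.p6, the assembly of mm10), from 250 bases before to 50 after the start, and 7 of the 8 genes matched an entry. Capitals mark letters that match 1 of 6 searched motifs on either strand. The first 3 promoters lay under a peak in both libraries. That of Il12rb2 is at chr6:67376139-67376438 on the minus strand, that of Il18r1 at chr1:40465371-40465670 and that of Il18rap at chr1:40515112-40515411, both on the plus strand.
Il12rb2: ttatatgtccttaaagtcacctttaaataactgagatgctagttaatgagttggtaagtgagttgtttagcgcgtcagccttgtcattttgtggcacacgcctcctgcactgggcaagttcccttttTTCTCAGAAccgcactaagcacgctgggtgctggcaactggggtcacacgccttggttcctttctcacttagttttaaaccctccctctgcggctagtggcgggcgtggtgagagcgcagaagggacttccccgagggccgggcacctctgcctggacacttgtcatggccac
Il18r1: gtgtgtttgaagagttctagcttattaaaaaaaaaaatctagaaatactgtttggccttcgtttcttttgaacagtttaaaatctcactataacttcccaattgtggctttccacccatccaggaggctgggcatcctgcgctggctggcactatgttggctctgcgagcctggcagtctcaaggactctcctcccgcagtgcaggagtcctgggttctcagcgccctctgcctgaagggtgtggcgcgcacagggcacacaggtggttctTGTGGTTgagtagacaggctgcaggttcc
Il18rap: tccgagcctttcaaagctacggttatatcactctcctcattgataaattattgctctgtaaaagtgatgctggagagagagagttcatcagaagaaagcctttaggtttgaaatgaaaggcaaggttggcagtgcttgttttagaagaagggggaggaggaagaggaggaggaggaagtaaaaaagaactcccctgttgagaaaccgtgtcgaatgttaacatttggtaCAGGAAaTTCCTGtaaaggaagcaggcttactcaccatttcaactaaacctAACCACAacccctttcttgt

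The next pair had no peak in either library. The Il1r1 promoter is at chr1:40224830-40225129 and the Il1rl1 promoter at chr1:40429320-40429619, both on the plus strand.
Il1r1: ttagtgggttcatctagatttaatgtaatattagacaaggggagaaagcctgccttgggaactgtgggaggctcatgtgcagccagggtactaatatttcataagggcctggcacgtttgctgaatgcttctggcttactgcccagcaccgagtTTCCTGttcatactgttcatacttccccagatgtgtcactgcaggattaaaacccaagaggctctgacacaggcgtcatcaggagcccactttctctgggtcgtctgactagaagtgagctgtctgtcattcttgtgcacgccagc
Il1rl1: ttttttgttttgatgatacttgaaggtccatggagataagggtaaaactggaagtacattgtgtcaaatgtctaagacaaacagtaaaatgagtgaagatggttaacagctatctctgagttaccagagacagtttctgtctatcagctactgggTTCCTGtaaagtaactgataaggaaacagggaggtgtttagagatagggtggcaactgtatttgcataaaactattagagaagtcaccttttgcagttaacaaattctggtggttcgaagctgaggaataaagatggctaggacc

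Of the 7 genes with an entry, 5 had a promoter peak in both libraries, namely Il12rb2, Il18r1, Il18rap, Il1r2 and Il1rl2. Across 17492 protein-coding genes the share was 58.4%. Il1r1 and Il1rl1 had none in either library at any of their listed starts. The starts of Il1r1, at 40225080 and 40266586, lay 40068 and 2033 bp from the nearest treatment peak, and 2970 and 1969 bp from the nearest control peak. The starts of Il1rl1, at 40429570 and 40439629, lay 29429 and 25859 bp from the nearest treatment peak, and 12183 and 2124 bp from the nearest control peak. The span of Il1rl1 begins before both, at 40404864. A weak control-only peak, from 40404762 to 40405076 with 38 reads, covers that end, which has no entry among the promoters.

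The promoter peaks had unequal strength. Summit coverage, the number of reads over the highest point of a peak, was 813 in treatment and 1195 in control at Il18r1. At Il12rb2 it was 602 in treatment and 990 in control, and at Il18rap 511 in treatment and 649 in control. In coverage, these starts stood above those of Il1r2 and Il1rl2 in each library, while Il12rb1 had no promoter entry. At Il1r2 coverage was 132 reads in treatment and 171 in control, and at Il1rl2 it was 115 in treatment and 120 in control.

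Few of the searched motifs were found in these promoters. The letters searched were TGANTCA for AP-1, TTCNNNGAA for STAT factors, GGTGTGA for T-box factors, TGTGGTT for RUNX factors, CAGGAA for ETS factors, and for NF-kB the letters GGGA and TTTCC with 1 free base between them. The Il18rap promoter held a RUNX match and 2 ETS matches on opposite strands, 1 base apart. The Il18r1 promoter shown held a RUNX match, and the promoter of its start at 40466006, not shown, held 2 STAT matches. The Il12rb2 promoter held a STAT match, as did the Il1r2 promoter, not shown. Also not shown, the promoters of Il1rl2 and of the Il1rl1 start at 40439629 each held an ETS match. The Il1r1 and Il1rl1 promoters shown each held an ETS match and no other. Such letters occur in 5.27% (RUNX), 30.6% (ETS) and 8.30% (STAT) of 32851 promoters of this length. No AP-1, T-box or NF-kB match was found in any promoter of the set, and 7.81%, 3.98% and 0.411% of all promoters hold one. A match describes the letters in this window and no binding. G and C made up 53.0% of the bases at Il12rb2, 51.3% at Il18r1 and 42.3% at Il18rap, and 49.3% at Il1r1 and 38.7% at Il1rl1, with a median of 52.7% over all promoters. The promoters with and without a peak overlapped in base composition.

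All 43 treatment peaks at the receptor loci overlapped a control peak, so no region was called in treatment only. A count of 0 of 43 allows a share of up to 8.20% by the 95% Wilson interval, which covers counting error only, and over the genome 6.80% of treatment peaks were found in treatment only. Of the 64 control peaks, 21 (32.8%, Wilson interval 22.6 to 45.0%) were found in control only, against 29.2% of all control peaks. The genome share lies inside that interval. With the control list reduced to the length of the treatment list by p-value, the set held 43 treatment peaks and 49 control peaks. Then 3 treatment peaks (6.98%) and 9 control peaks (18.4%) were found in 1 library only, against 16.1% of all treatment peaks and 16.7% of all control peaks. Each of the 8 genes had a lower number of peaks in treatment. Fewer peaks were found in treatment at 53.2% of all protein-coding genes and at 71.5% of those with at least 3 control peaks, as each of the 8 had, while 6.04% of all genes had more. At Il18r1, Il1r2 and Il1rl2 the difference was 1 peak, and with 50 kb on either side it was 3, 7 and 6 peaks. With lists of equal length Il18r1 and Il18rap each had 1 peak more in treatment, the counts at Il1rl1 were equal, and the deficit in treatment was 2 peaks at Il12rb1 and 1 at Il12rb2.

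**Figure D1:**
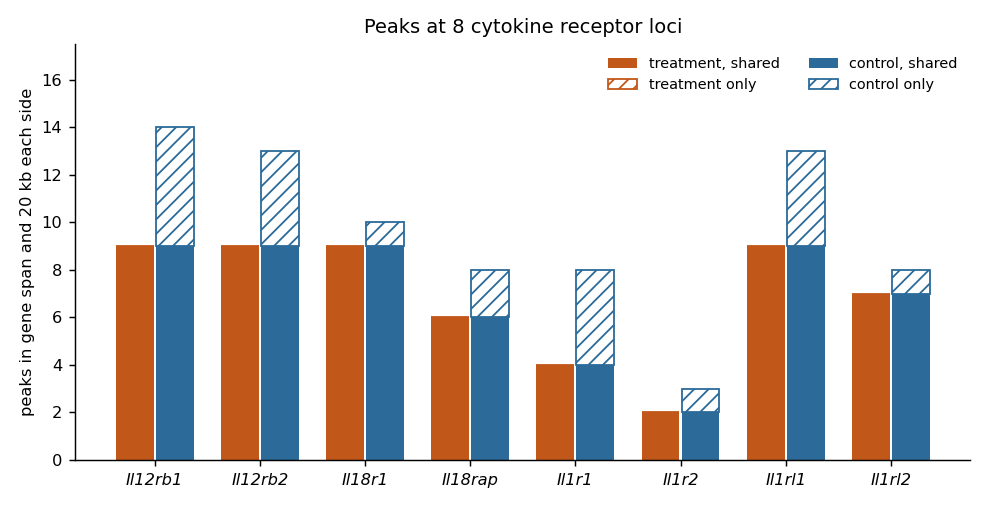
Number of ATAC-seq peaks in the span of each receptor gene and 20 kb on each side, in treatment (left bar, orange) and control (right bar, blue); filled parts are peaks shared with the other library and hatched parts peaks of 1 library only. No bar of the treatment library has a hatched part, and control-only peaks number between 1 and 5 per gene.

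The IL-12 receptor genes carried some of the strongest peaks of the set. Il12rb2 (chromosome 6, 67285986 to 67376293) encodes the signalling chain that sets the response of T cells to IL-12, and its window held 9 treatment peaks and 13 control peaks. Of these, 7 treatment peaks and 11 control peaks had their summit in the gene. Shared inner peaks are given by their control summits. At 67318042 summit coverage was 378 reads in treatment and 392 in control, a ratio of 0.96 (95% interval 0.84 to 1.11, counting error only). At 67339666 it was 597 in treatment and 697 in control, and at 67348252, the highest point inside the gene, 947 in treatment and 1211 in control. By coverage these central peaks had ratios of 0.78 or more, and shared peaks towards both ends of the gene had lower point values. Farthest from the start, the peak at 67295090 had 72 reads in treatment and 97 in control, a ratio of 0.74 (0.54 to 1.02), and that at 67296354 had 192 in treatment and 261 in control, also a ratio of 0.74 (0.61 to 0.89). On the side of the start, the peak at 67367321 had 216 reads in treatment and 546 in control, a ratio of 0.40 (0.34 to 0.46). At the promoter the ratio was 0.61 (0.55 to 0.67). A further peak upstream of the start, at 67378209, had 122 reads in treatment and 445 in control. Its coverage ratio of 0.27 (0.22 to 0.34) was the lowest of the 43 shared peaks. By fold enrichment the ratios were 1.14, 0.96 and 1.04 at the central peaks, and 1.17 and 1.09 at 67295090 and 67296354. They were 0.58 at 67367321, 0.92 at the promoter and 0.43 at 67378209. The end far from the start was thus not below the centre by fold, and by coverage its intervals overlap those of the central peaks.

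Beyond the other end of Il12rb2 the strongest peak of the window covers the promoter of Serbp1, an RNA-binding protein gene. Its summit coverage was 2186 reads in treatment and 2184 in control. The 4 control-only peaks of Il12rb2 lay inside the gene, with coverages of 94, 69, 154 and 182 reads in control. Each was lower than the 3 central peaks, of which the lowest had 392 reads in control.

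Il12rb1 (chromosome 8, 70808360 to 70823542), the chain common to the interleukin-12 and interleukin-23 receptors, is a short gene among other genes, and its window held 9 treatment peaks and 14 control peaks. A peak at the low-coordinate end of its span had 310 reads in treatment and 476 in control. Its fold enrichment, the authors' ratio of summit coverage to the local background, was 2.71 in treatment and 2.53 in control. That background was 114 reads in treatment and 188 in control, far above the lowest of each list, 15.0 in treatment and 14.2 in control. The inner peak at 70811460 had 500 reads in treatment and 731 in control, and the inner peak at 70821689 had 228 in treatment and 377 in control. A pair of strong peaks just outside, at 70805050 and 70806768, had 861 and 720 reads in treatment, against 1262 and 1274 reads in control. By coverage, all 9 shared peaks of Il12rb1 were lower in treatment, with ratios between 0.57 and 0.93. Their ratios by fold enrichment, in genome order, were 0.79, 0.86, 1.12, 0.94, 1.07, 1.16, 1.09, 0.82 and 1.003. By fold they thus lay on both sides of 1.

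By coverage, the highest ratios at Il12rb1 belonged to the peaks at promoters of its neighbours. The Arrdc2 promoter had 2572 reads in treatment and 2786 in control, a ratio of 0.92 (0.87 to 0.97). The Mast3 promoter had 1449 reads in treatment and 1562 in control, a ratio of 0.93, at summits 912 bp apart. The ratio by fold enrichment was 0.79 at the Mast3 promoter, the lowest at Il12rb1, and 1.003 at the Arrdc2 promoter. The ranking by coverage was thus not seen by fold. The strongest shared peak by fold, at 70833117 between genes, had a fold enrichment of 19 in treatment and 23 in control, with 722 reads in treatment and 1215 in control. Of the 5 control-only peaks, 3 lay inside Il12rb1, with fold enrichments of 1.48, 1.53 and 1.94 in control. The other 2 lay beyond the gene, with 177 and 505 reads in control.

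**Figure D2:**
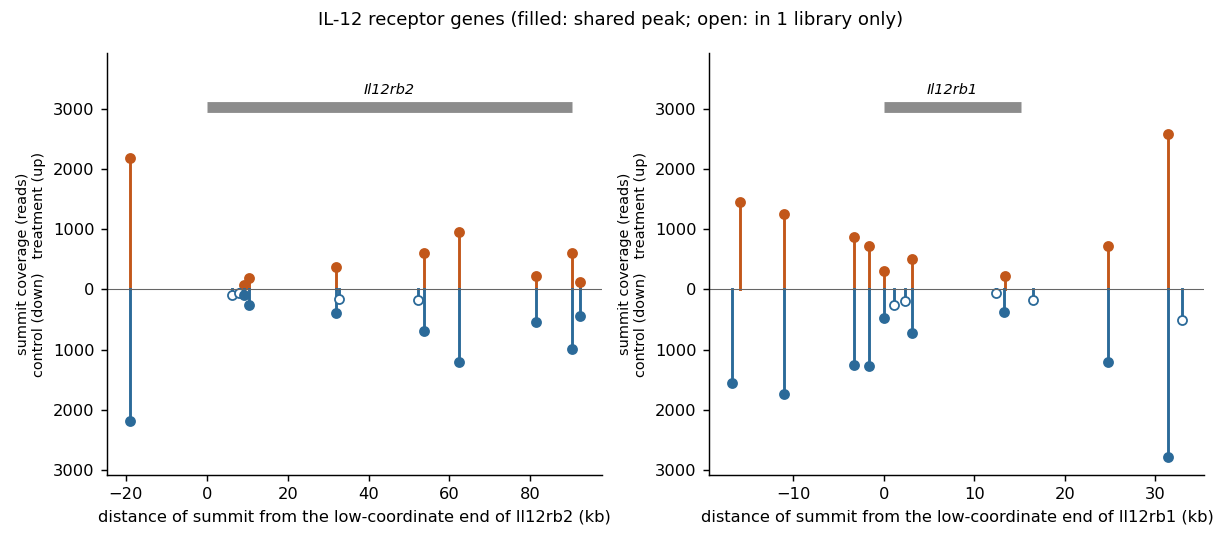
Summit coverage in reads at every peak nearest to Il12rb2 (left) and Il12rb1 (right), by distance in kb from the low-coordinate end of each gene; treatment points up, control points down, filled circles are shared peaks, open circles peaks of 1 library, and the grey bar is the gene. The tallest pair in each panel lies outside the gene, at the Serbp1 promoter (2186 reads in treatment, 2184 in control) and at the Arrdc2 promoter (2572 reads in treatment, 2786 in control).

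The chromosome 1 cluster held 25 treatment peaks and 37 control peaks, each counted once, and its strongest stretch was Il18r1. Because the genes are close together, 12 treatment and 13 control peaks touched more than 1 window. With every peak given to the nearest gene by its summit, Il18r1 had 8 treatment and 8 control peaks, and all were shared. Il18rap had 4 treatment and 6 control peaks, and Il1rl2 had 5 treatment and 6 control peaks. Il1rl1 and Il1r1 each had 3 treatment and 7 control peaks, and Il1r2 had 2 treatment and 3 control peaks. Among the peaks nearest to the IL-18 receptor genes 2 of 14 control peaks were missing from treatment, and among those nearest to the other 4 genes of the cluster 10 of 23. The Wilson intervals of these shares, 4.01 to 39.9% and 25.6 to 63.2%, overlap. Both include the share of all control peaks found in control only, 29.2%.

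Il18r1 (40465552 to 40500854), the ligand-binding chain of the IL-18 receptor, was accessible at its start and at a row of 5 peaks in the first part of the gene. The promoter peak had a ratio of 0.68 (0.62 to 0.74). At 40470154 coverage was 595 reads in treatment and 873 in control, and at 40473860 it was 408 in treatment and 476 in control, a ratio of 0.86 (0.75 to 0.98). Further in, the libraries were closer in coverage. At 40475819 coverage was 666 reads in treatment and 696 in control, a ratio of 0.96 (0.86 to 1.07). At 40479614 it was 510 reads in treatment and 529 in control, a ratio of 0.96 (0.85 to 1.09). The weakest of the row, at 40476997, had 236 reads in treatment and 206 in control, and its ratio of 1.15 (0.95 to 1.39) was the highest of the 43 shared peaks. By coverage, the last 3 peaks of the row thus had intervals that include 1, while the promoter and the first 2 peaks of the row had intervals below 1. These intervals cover counting error only. By fold enrichment the ratios were 0.95 at the promoter and 0.92 and 0.99 at the first 2 peaks. At the last 3 they were 0.96, 1.16 and 0.97, so by fold this split was not seen. Local background at the promoter was 67.0 reads in treatment and 94.2 in control, and at 40475819 it was 79.6 in treatment and 80.0 in control. Between Il18r1 and Il18rap the peaks at 40502215 and 40504818 had 138 and 128 reads in treatment, against 390 and 280 reads in control.

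Il18rap (40515362 to 40551707), the accessory chain of the IL-18 receptor, had its strongest treatment peak at the start. The promoter peak had a ratio of 0.79 (0.70 to 0.89), and its fold enrichment, 18.1 in treatment and 18.9 in control, was the highest of the cluster in treatment. An inner peak at 40524176 was about as high as the promoter in control, and had 288 reads in treatment and 656 in control, a ratio of 0.44 (0.38 to 0.51). A weak peak at 40522964 had 39 reads in treatment and 109 in control, and one at 40544823 had 107 in treatment and 144 in control. The control-only peaks of Il18rap lay just after the start, with 105 reads, and near the far end of the gene, with 74 reads.

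A second dense stretch lay between the end of Il1rl2 and Il1rl1. It held 4 shared peaks, with control summits at 40380341, 40381180, 40383115 and 40386329. Coverage was 314, 349, 650 and 312 reads in treatment, against 471, 562, 639 and 781 reads in control. The peak at 40383115 had a ratio of 1.02 (0.91 to 1.14), and that at 40386329 a ratio of 0.40 (0.35 to 0.46). Neighbouring peaks thus differed in their ratios. By fold enrichment the ratios of the 4 peaks were 0.84, 0.82, 1.48 and 0.57. All 4 are in the window of Il1rl2, and the one at 40386329 is also in that of Il1rl1. Towards Il1rl1 the peak at 40391600 had 102 reads in treatment and 325 in control, and was 256 bp wide in treatment and 527 bp in control. The peak at 40399844 had 216 reads in treatment and 237 in control.

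Il1rl1 (40404864 to 40465418) encodes ST2, the receptor of interleukin-33, an alarmin that acts on mast cells, type 2 innate lymphocytes and some T cells. No treatment peak had its summit in its span of 60555 bp, and 3 control peaks did. The shared peaks in its window lay before the gene or at Il18r1, which begins just after it. Of the 3 control-only peaks in the gene, those with summits at 40405041 and 40413272 had 38 and 61 reads in control, and another control-only peak, before the gene, had 90. The one at 40441753 to 40442201 had 170 reads and a fold enrichment of 11.3 in control, with its summit 2412 bp after the start at 40439629. It had the highest fold enrichment of the 21 control-only peaks. Its quartile of the control list runs from 8.18 to 13.8 in fold enrichment, and 13.7% of all control peaks in it were found in control only.

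Il1r1 (40222480 to 40316201) encodes the signalling receptor of interleukin-1, and its window held 4 treatment peaks and 8 control peaks. Its 4 control-only peaks had 71 to 86 reads. The 3 shared peaks inside the gene were all lower in treatment by more than 1.5-fold. Coverage was 61 reads in treatment and 218 in control at 40268784, and 165 in treatment and 495 in control at 40271334. At 40315652 it was 98 in treatment and 275 in control. The coverage ratios of 0.28 (0.21 to 0.37), 0.33 (0.28 to 0.40) and 0.36 (0.28 to 0.45) stood at percentiles 3.91, 6.67 and 8.17 of those of all shared pairs. By fold enrichment the ratios were 0.62, 0.75 and 0.34, against a genome median of 0.836. Local background at 40268784 and 40271334 was 17.0 and 16.6 reads in treatment, against 38.2 and 38.3 in control.

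Il1r2 (40084692 to 40125230) encodes a receptor that binds interleukin-1 without signalling. Its inner peak at 40116642 had 199 reads in treatment and 308 in control, a ratio of 0.65 (0.54 to 0.77), and a control-only peak with 90 reads lay just before it. Il1rl2 (40324589 to 40367555) encodes the receptor of the interleukin-36 cytokines, best known in epithelia. Its promoter peak had a coverage ratio of 0.96 (0.74 to 1.25), the highest point value among the promoters of the set. The fold ratio of that peak was 0.88. It was below those at Il18rap (0.96), Il18r1 (0.95) and Il12rb2 (0.92), and above that at Il1r2 (0.73). That peak was 929 bp wide in treatment and 1005 bp in control, and its summit lay 421 bp further into the gene in treatment. The other peaks inside the gene were 1 shared peak, at 40356098, with 72 reads in treatment and 147 in control, and 1 control-only peak of 86 reads.

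**Figure D3:**
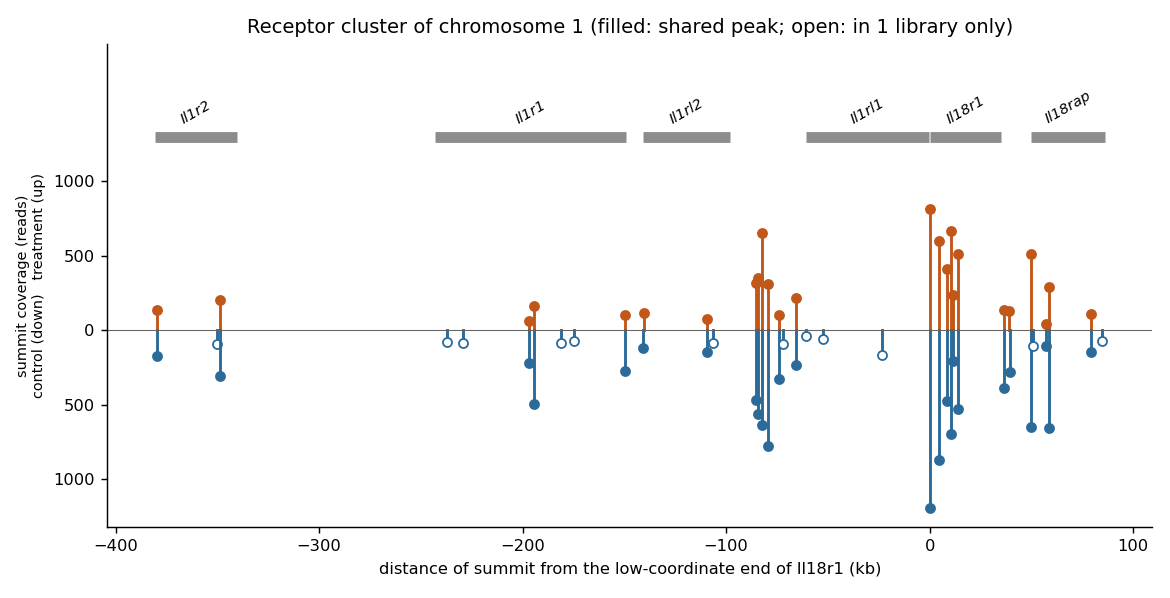
Summit coverage in reads at the peaks of the chromosome 1 receptor cluster, by distance in kb from the low-coordinate end of Il18r1; treatment points up, control points down, filled circles are shared peaks, open circles peaks of 1 library, and grey bars are the genes. The dense groups lie between Il1rl2 and Il1rl1 and in the first part of Il18r1, and the span of Il1rl1 has control-only peaks alone.

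Over the 8 loci, shared peaks were lower in treatment to about the extent seen in the whole genome. Of the 43 shared pairs, 40 had a lower summit coverage in treatment and 19 were lower by more than 1.5-fold, with 0 higher by that factor. Among 58875 pairs of the genome in which each peak overlapped 1 peak of the other library, 84.9% were lower in treatment and 44.0% lower by more than 1.5-fold. Higher by more than 1.5-fold were 1531 of those genome pairs. The median ratio was 0.682 at the receptors and 0.705 over the genome. It was 0.712 at the 12 pairs nearest to Il18r1 and Il18rap, 0.70 at the 18 pairs of Il12rb1 and Il12rb2, and 0.621 at the 13 pairs of the other 4 genes. These medians lie between the quartiles of all pairs, 0.532 and 0.894. By fold enrichment in place of coverage, a measure added after seeing the data, 31 of 43 pairs were lower in treatment. Over the genome, 44549 of 58890 pairs were lower by fold. The median fold ratio was 0.915 at the receptors and 0.836 over the genome. At the 18 pairs of the IL-12 receptor genes the median fold ratio was 1.02, with 8 pairs lower. The local background, by which fold enrichment divides coverage, was lower in treatment at 37 of the 43 pairs. Its median was 37.2 reads in treatment and 51.9 in control. The same count was not made over the genome's pairs, so a trait of these loci cannot be read from it. The lowest background of the whole list in treatment was 1.06 times that in control. Divided by the narrowest peak width of each list, 186 bp in treatment and 176 bp in control, it was 1.006 times.

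Peaks were also narrower in treatment. Of the 43 pairs, 34 were narrower, against 78.4% of the genome's pairs, and the median ratio of widths was 0.901 at the receptors and 0.912 over the genome. All 9 pairs of Il12rb1, all 5 of Il1rl2 and all 3 each of Il1r1 and Il1rl1 were narrower. Among the exceptions, the weak peak at 40522964 in Il18rap was 372 bp wide in treatment and 230 bp in control. The strong Il18r1 promoter peak was 823 bp wide in treatment and 780 bp in control. Summits lay at nearly the same place in most pairs, with 37 of 43 within 50 bp of each other and a median shift of 16 bp, against 81.7% of the genome's pairs within 50 bp and a median shift of 5 bp. The largest shift, 912 bp, was at the Mast3 promoter, where the peak was 1786 bp wide in treatment and 1980 bp in control. The median width of all peaks of the set was 528 bp in treatment and 475.5 bp in control.

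**Figure D4:**
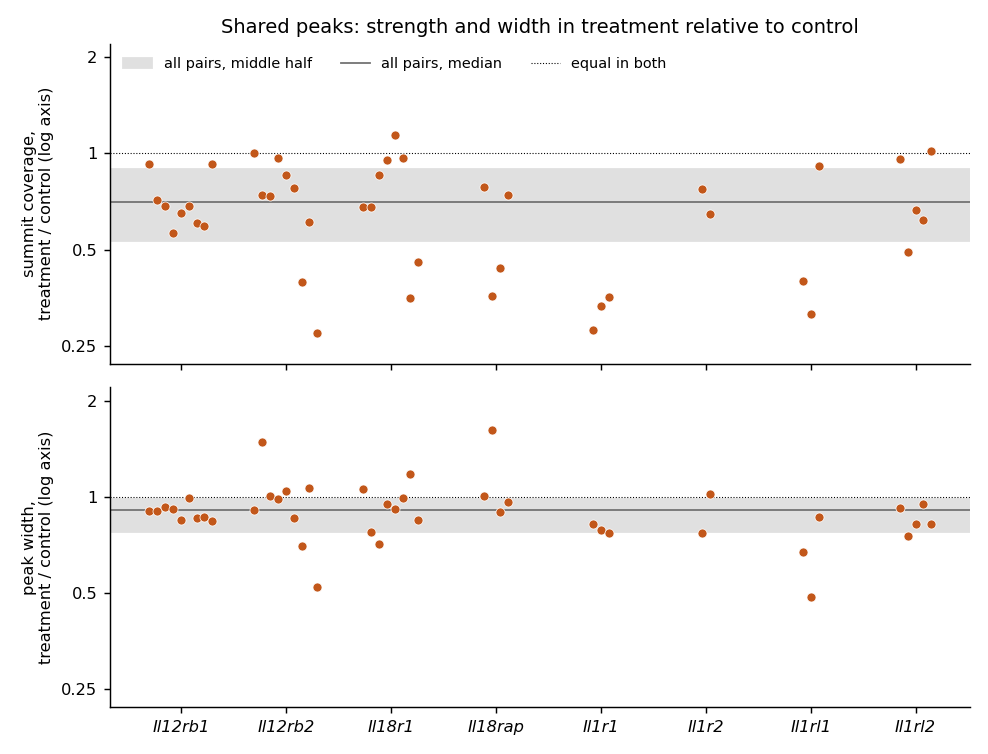
Ratio of treatment to control for summit coverage (top) and peak width (bottom) at the 43 shared peaks, by nearest gene and in genome order, on log axes; the grey band and line are the range between the quartiles and the median of all pairs of the genome, and the dotted line marks equality. The 3 peaks of Il1r1 all lie below the band for coverage, and 1 peak of Il18r1 has the highest coverage ratio, 1.15.

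The control-only peaks were mostly weak ones. Their median coverage was 90 reads and their median width 316 bp, against 495 reads and 595 bp at the shared control peaks. Of the 14 control peaks in the lowest quartile of coverage of the control list, 13 were control-only, and 69.3% of all control peaks in that quartile were. In the second quartile it was 6 of 13, against 35.6% of all, and in the third 2 of 16, against 11.0%. None of the 21 in the highest quartile was control-only, against 0.897% of all. The 2 in the third quartile belong to Il12rb1, with 254 and 505 reads over local backgrounds of 172 and 203 reads.

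Genes of the same pathway outside the 8 loci were counted in the same windows. The 12 signal transducers, among them Il1rap, Jak2, Tyk2, Stat4 and Myd88, held 102 treatment peaks and 114 control peaks, and 6 genes had fewer in treatment, 5 as many and 1 more. Stat4, the factor activated by IL-12, held 16 treatment and 18 control peaks, and Myd88, the adaptor of the IL-18 and IL-1 receptors, held 6 of each. The 10 ligand genes held 26 treatment and 33 control peaks, with 0 in either library at Il36a. The 5 inhibitor genes held 29 treatment and 32 control peaks. Among them Il18bp, which encodes a soluble trap for IL-18, held 3 of each, and Socs1, an inhibitor of cytokine signalling, 11 treatment and 10 control peaks. The 8 target and partner genes held 67 treatment and 86 control peaks, with 7 genes lower in number in treatment and 1 equal. The equal one was Ifng, which encodes interferon-γ, with 7 of each, and Tbx21, which encodes the T-box factor T-bet, held 8 treatment and 11 control peaks.

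Other cytokine receptor families are given for scale. The 8 receptors of the common gamma chain family held 83 treatment and 82 control peaks, with 4 genes lower in number in treatment, 2 equal and 2 higher. Of these, 10 of the treatment peaks were treatment-only, 6 of them at Il7r, and 9 of the control peaks (11.0%, Wilson interval 5.88 to 19.6%) were control-only. The 8 receptors of the IL-6 family held 54 treatment and 67 control peaks, of which 4 were treatment-only and 16 control-only (23.9%, 15.3 to 35.3%). Peaks within a library are not replicates, so these intervals say nothing of how the shares would vary between libraries. Il23r, which encodes the partner of IL-12Rβ1 in the IL-23 receptor, held 10 treatment and 11 control peaks. Next to the cluster, Map4k4 held 27 treatment and 31 control peaks, Slc9a2 3 treatment and 5 control peaks, and Slc9a4 0 treatment peaks and 1 control peak.

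Genes of the labelled cell type and of other cell types were counted in the same windows. Of all 21887 protein-coding genes, 3934 had no peak in either library. Most genes thus held a peak, and holding one does not tell cell types apart. All 7 CD8+ T cell genes, Cd8a, Cd8b1, Cd3d, Cd3e, Cd3g, Lck and Zap70, held 9 to 16 treatment peaks and 10 to 16 control peaks. All 6 CD4 and regulatory T cell genes held peaks, 5 to 9 in treatment and 6 to 11 in control. Of the NK cell genes 3 of 4 held peaks, 19 in treatment and 27 in control in all, and Ncr1 had none in either. All 6 myeloid and neutrophil genes held peaks, 26 in treatment and 37 in control, as did all 4 genes of type 2 innate lymphocytes, 13 in treatment and 17 in control. Of the mast cell and basophil genes 3 of 5 did, 9 in treatment and 11 in control, and Fcer1a and Mcpt4 had none in either library. The 5 B cell genes held 38 peaks in treatment and 41 in control, and Ms4a1 had 1 in treatment and 0 in control. Shared peaks of the other cell types' genes were also lower in treatment, beside the median coverage ratio of 0.682 at the receptors. The median ratio was 0.882 at the CD8+ T cell genes, where 37 of 56 pairs were lower in treatment. It was 0.563 at the myeloid and neutrophil genes (19 of 23 pairs lower), 0.59 at the B cell genes (30 of 33), 0.677 at those of type 2 innate lymphocytes (12 of 13), 0.696 at the NK cell genes (16 of 18), 0.698 at the CD4 and regulatory T cell genes (35 of 37) and 0.748 at the mast cell and basophil genes (6 of 7). The median over the genome was 0.705. A peak shows accessible DNA, which can lie in a neighbouring gene, and not expression, and the part of other cells in the receptor peaks was not tested. A smaller share of cells with an open region and a smaller opening per cell cannot be told apart in these bulk libraries.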

How the data were processed

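ATAC-seq peak lists of 1 treatment and 1 control library, grouped by title, were used as deposited, in mm10 coordinates. Per the submitters' processing notes the tools included cutadapt 2.5, Bowtie2 2.3, Picard 2.20 and MACS2. Settings, read filters and any transposase shift are not stated in these sources. Each deposited peak carries the authors' score, a fold enrichment (ratio) over local background, −log10 p-values and q-values, and a summit offset. Read totals were not used, so depth is known only through the peaks.

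Only peaks on the autosomes and sex chromosomes entered. Sharing meant an overlap of 1 bp or more between the lists. Summit coverage was computed as the whole number that, with the deposited fold, gives the −log10 p within 0.001. It was found for all peaks of the set, and the step was checked on simulated data. Intervals of ratios are exact (Clopper-Pearson) and those of shares Wilson, at 95%. They cover counting error only, and duplicate or overlapping reads are not independent.

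Gene spans and promoters came from RefSeq tables of GRCm38.p6. Sequence of peaks outside the promoters was not analysed here, nor was Il36rn of the inhibitor list. The members and lists were chosen with earlier results of these data known. By rule, the peaks named singly were each gene's peak of highest fold in each library, the single-library peaks and those with a summit within 1 kb of a gene's end. Other shared peaks, and the promoters without a peak, were added after their values were seen. Alternatives covered sharing, threshold, list length, window and placement. Python 3.11.15, pandas 2.3.3 and SciPy 1.17.1 were used.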

Additional observations from a re-analysis of the deposited data

How the results depend on the processing

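Peak counts, shares and the median ratio were recomputed with other definitions of sharing, thresholds, windows and list lengths. With the control list reduced to the length of the treatment list, which drops its weakest peaks, 81.6% of control peaks at the 8 loci were shared, against 67.2% as reported, and 93.0% of treatment peaks were, out of 43 treatment and 49 control peaks. Il18r1 and Il18rap then each had 1 peak more in treatment than in control, and Il1rl1 had as many in each. With gene spans alone the set held 27 treatment peaks, against 43. Il18r1 had as many peaks in each library with spans alone or a 10 kb window. The other 5 genes had fewer peaks in treatment under all 9 of these alternatives, but the size of the deficit moved. With lists of equal length it was 2 peaks at Il12rb1, as with a −log10 q of at least 10, and 1 at Il12rb2, against 5 and 4 as reported. With the 50 kb window it was 7 peaks at Il1r2 and 6 at Il1rl2, against 1 at each as reported. The share of treatment peaks that were shared lay between 93.0% and 100%. Chosen after seeing the data were the fold enrichment in place of coverage, with a median ratio of 0.915 against 0.682, and leaving out peaks at promoters of other genes, which left 40 treatment and 61 control peaks. No paired analysis was possible because each group has 1 library, and no replicate could be left out. Read totals were not used, so a difference in depth between the libraries was not tested.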
